A study of Mus musculus with 12 samples.

Results

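The 7 genes Gckr, Slc2a2, Pklr, Khk, Pfkl, Pfkfb1 and Pfkfb3 encode proteins that take up glucose and fructose, carry out steps of their breakdown or regulate such steps. They were chosen by name from the 46078 genes of a liver RNA-seq count table, and all 7 were found. Livers came from male C57BL/6 mice (C57BL/6J in the study's methods) aged 21 weeks, all with diet-induced obesity after a diet with 60% of its calories as fat from 5 weeks of age. VSG mice had a vertical sleeve gastrectomy, which removes most of the stomach. Sham-WM mice had a sham operation and were then given restricted food to match the weight of the VSG mice. Sham-Ad lib mice had a sham operation and ate freely. Tissue was taken on day 16 from the operation, once food had been withheld for 5 hours, and 4 livers from each group were sequenced. The design asks whether an operation and an equal weight loss by food restriction leave the liver in the same state.

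Each sample's title gives its group and animal number, and libraries were grouped by that number, which is also in the library's name (library 4F, for example). A further label field gives each title a library of a different animal number. Grouped by title number, 98 genes passed in VSG against Sham-Ad lib, 912 in Sham-WM against Sham-Ad lib and 3509 in VSG against Sham-WM. Grouped by the other field, 0 genes passed in any of these comparisons with edgeR, and 465, 715 and 158 genes in this order had an unadjusted p under 0.05. Every call named for a gene below therefore rests on the grouping by title number. Ranges given below over the alternatives include the grouping by the other field. Library index numbers run in 1 block for each group, and any batch along them and the treatment cannot be told apart. Library totals ranged from 15122520 to 19384076 counts, and 13054 genes passed the filter on low counts, all 7 of these genes among them. The lowest count of any of the 7 in any library was 60. Levels are TMM-normalized CPM, which are counts rescaled so that libraries of unequal depth can be compared, given as mean ± SD of 4 libraries. Differences are log2 fold changes from edgeR's quasi-likelihood test, with p-values adjusted over all genes tested.

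The tissue label held, since the summed level of 7 hepatocyte markers lay between 81196 and 151317 CPM in every library. Markers of other cells differed between groups, however. The sum of 7 neutrophil markers was 22.3 to 638 CPM in VSG libraries, highest in 1F, against 2.66 to 3.72 in Sham-WM and 1.30 to 16.2 in Sham-Ad lib, where 4F was highest. The sum of 7 Kupffer cell and macrophage markers was 459 to 1297 CPM in VSG, 124 to 215 in Sham-WM and 141 to 450.0 in Sham-Ad lib, with the same libraries on top. Hepatocyte markers summed to 81196 to 125832 CPM in VSG, 123286 to 151317 in Sham-WM and 103798 to 126259 in Sham-Ad lib. Of all the marker lists, Lep was the only gene at 0 in every library. In whole liver, fewer cells of a type and less RNA per cell cannot be told apart.

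Hepatocytes take up glucose through GLUT2 and trap it inside the cell by phosphorylation, a step under the control of a regulatory protein that Gckr encodes. Fructose is phosphorylated by ketohexokinase and enters the pathway below the phosphofructokinase step, whose rate is set by fructose 2,6-bisphosphate. Pyruvate kinase closes glycolysis, and its liver gene is a classical target of the carbohydrate response factor ChREBP, which binds a paired E-box-like element.

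Of the 7 genes, only Pklr passed the test in any comparison, and it did so between VSG and Sham-WM. Pklr (ENSMUSG00000041237) encodes the liver and red cell pyruvate kinase (mm10 chromosome 3, 89136142 to 89146784, plus strand). RefSeq windows from 250 bases before to 50 bases after a start site were held for all 7 genes, 12 windows in all on GRCm38.p6. Pklr has 2 of them, and both are shown because the gene's transcripts start at separate places and the motif lies in one alone. The first, chr3:89135892-89136191, holds the start of Pklr-201, the furthest upstream of the annotated transcripts. The second, chr3:89136373-89136672, lies beyond the first exon of Pklr-201. Its start site is base 89136623, the annotated start of Pklr-204, and it also covers the start of Pklr-202 at 89136572. Capitals mark the carbohydrate response element, searched as CACGNG and CNCGTG with 5 bases between them on both strands.
Pklr window 1: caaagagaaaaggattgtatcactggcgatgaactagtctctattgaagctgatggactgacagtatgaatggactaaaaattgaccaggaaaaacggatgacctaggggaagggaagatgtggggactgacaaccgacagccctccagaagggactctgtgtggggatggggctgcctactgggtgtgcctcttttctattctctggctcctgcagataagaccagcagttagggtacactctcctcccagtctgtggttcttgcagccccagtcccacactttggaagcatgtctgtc
Pklr window 2: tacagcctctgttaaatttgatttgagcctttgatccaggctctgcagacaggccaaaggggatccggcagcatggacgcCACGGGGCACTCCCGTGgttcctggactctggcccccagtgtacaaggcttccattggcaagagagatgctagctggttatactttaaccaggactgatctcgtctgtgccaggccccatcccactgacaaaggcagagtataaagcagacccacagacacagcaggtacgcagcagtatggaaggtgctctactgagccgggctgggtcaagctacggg
The element lay from 170 to 154 bases before base 89136623 of the second window (-170 to -154). It was held by 15 of 32851 windows of the same length, or 0.0457%, and by Pklr alone among the listed pathway genes that have a window. The counts are per gene and do not separate the starts.

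The simple E-box CACGTG, held by 7.15% of the windows, was found in Khk (-71 to -66) and in the first window of Pfkfb3 (-53 to -48). The HNF4 motif CAAAGTCCA, held by 0.475% of the windows, was in none of the 12. The Pfkfb3 window (chr2:11502041-11502340, minus strand) is shown beside the Pfkfb1 window nearest to that gene's annotated start (chrX:150587993-150588292, plus strand), since the 2 genes encode alternative forms of 1 enzyme. Pfkfb1 has 4 windows and Pfkfb3 has 2, and which of their start sites these livers used was not examined. Capitals mark the E-box.
Pfkfb3 window 1: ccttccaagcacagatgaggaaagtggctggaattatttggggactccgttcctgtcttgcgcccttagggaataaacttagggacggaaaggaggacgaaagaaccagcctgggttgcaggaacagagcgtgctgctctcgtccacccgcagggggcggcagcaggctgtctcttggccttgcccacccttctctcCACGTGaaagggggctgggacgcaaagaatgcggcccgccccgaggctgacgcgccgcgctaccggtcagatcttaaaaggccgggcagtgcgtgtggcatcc
Pfkfb1 window 2: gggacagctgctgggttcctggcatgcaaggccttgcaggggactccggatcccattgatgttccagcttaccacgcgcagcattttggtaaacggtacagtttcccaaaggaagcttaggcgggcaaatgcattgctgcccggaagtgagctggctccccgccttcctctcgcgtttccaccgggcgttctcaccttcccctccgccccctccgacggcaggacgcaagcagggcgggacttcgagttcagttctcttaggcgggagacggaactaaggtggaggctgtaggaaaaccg

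Pklr was lowest after VSG and highest after food restriction. VSG libraries had 88.6 (1F), 167 (8F), 158 (11F) and 136 CPM (18F). Sham-WM libraries had 366 (2F), 336 (9F), 635 (15F) and 401 CPM (16F). Sham-Ad lib libraries had 223 (3F), 139.9 (4F), 282 (6F) and 356 CPM (10F). Every VSG library was thus below every Sham-WM library, while among the Sham-Ad lib libraries 4F fell into the VSG range and 10F into that of Sham-WM. Means were 137 ± 35.1 in VSG, 434 ± 136 in Sham-WM and 250.3 ± 91.4 in Sham-Ad lib (SD, n = 4 each).

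Between VSG and Sham-WM, Pklr was 3.16-fold lower after VSG, with a log2 fold change of -1.66 (standard error 0.29, 95% interval -2.28 to -1.04, adjusted p = 0.00217, edgeR). In this comparison 26.9% of all genes tested passed the threshold and 26.2% had ranges that did not overlap, so that 1 call among 7 genes (14.3%) is no more than the background. The call was held when any 1 library was left out, with adjusted p-values from 0.000886 to 0.00767. It was lost with 2 RUVs factors of unwanted variation (log2 fold change -1.26, adjusted p = 0.14) and under the other field of the labels (-0.18, adjusted p = 1.00), while over all 21 alternatives the adjusted p ranged from 1.94e-07 to 1.00. The study's methods state that batch variation was removed with RUVSeq, with k set to 2. They do not name the RUVSeq procedure or its control genes. The fit here took every tested gene as a control, and the 2 corrections are not shown to be the same.

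Against Sham-Ad lib, Pklr did not pass in either direction. The difference on the log2 scale was -0.86 (standard error 0.28, adjusted p = 0.102) in VSG and 0.80 (standard error 0.28, adjusted p = 0.115) in Sham-WM. The VSG value passed with DESeq2 (adjusted p = 0.0286) and when library 4F was left out of edgeR's fit (log2 fold change -1.06, adjusted p = 0.0285), within a range of 0.0285 to 0.999 over the alternatives. When each library was left out in turn, its adjusted p ran from 0.0285 to 0.274.

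Values that moved with the lower Pklr of VSG livers can be set beside it. Mean hepatocyte marker sums were 95658 CPM in VSG and 136722 in Sham-WM. Of the 7 hepatocyte markers, 2 passed as lower in VSG, where 26.9% of all genes tested passed. Without 1F, the VSG library with the most neutrophil and macrophage marker RNA, the log2 fold change from Sham-WM was -1.50 (adjusted p = 0.0072). The part of cell composition in the lower Pklr was not tested. Pklr shares 711 exon bases with Hcn3 on the opposite strand, a gene with a mean of 314 counts and a log2 fold change of -1.59 (adjusted p = 0.0452) in the same comparison. The libraries were directional but the strand setting of the counting is not stated, so reads of the 2 genes could be mixed. Pklr had at least 1484 counts in every library.

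**Figure D1:**
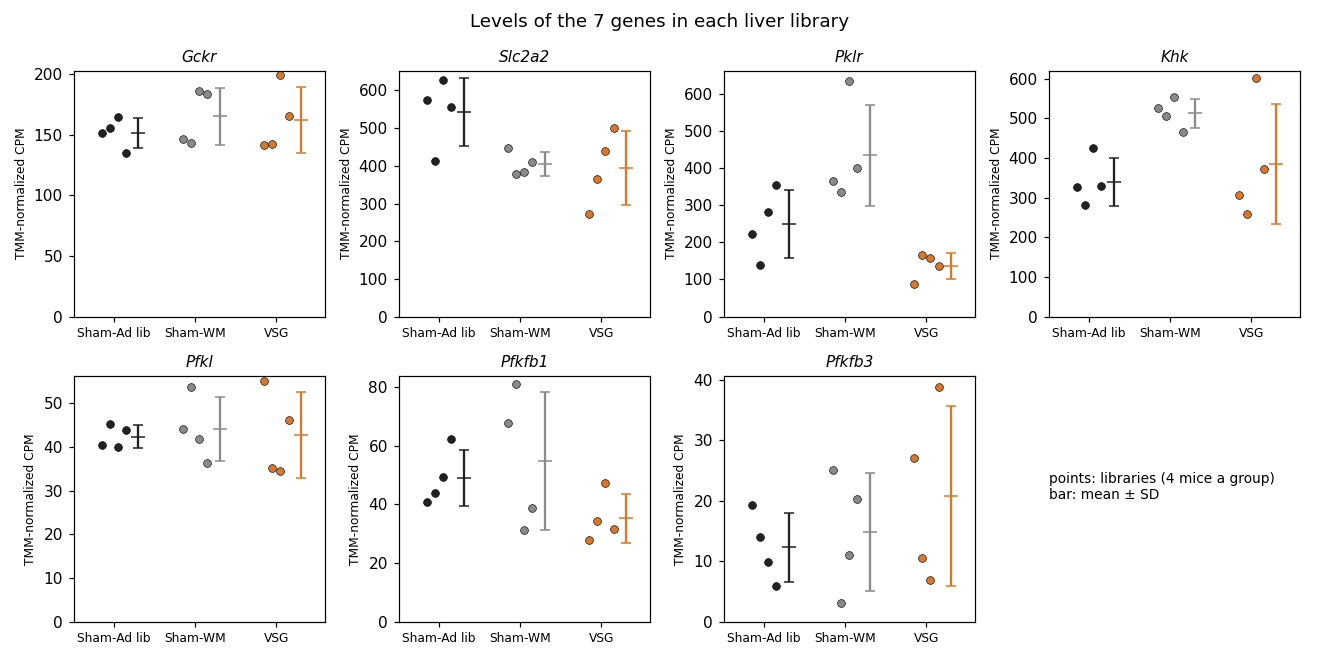
TMM-normalized CPM (vertical axes, each from 0) of the 7 genes in the 12 liver libraries, by group. Points are libraries, and bars are the mean ± SD of 4. VSG points of Pklr (88.6 to 167 CPM) lie below all Sham-WM points (336 to 635), and Khk in Sham-WM (466 to 553) lies above all Sham-Ad lib points (280.3 to 425).

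Slc2a2 (ENSMUSG00000027690, chromosome 3 from 28697903 to 28731359) encodes GLUT2, the glucose and fructose transporter of the hepatocyte surface. Its Sham-Ad lib libraries had 575 (3F), 414 (4F), 626 (6F) and 557 CPM (10F). Sham-WM libraries had 447 (2F), 378 (9F), 383 (15F) and 409.7 CPM (16F), and VSG libraries had 271 (1F), 365 (8F), 439 (11F) and 499 CPM (18F). Apart from 4F, the Sham-Ad lib libraries were above all others, and the ranges overlapped because of 4F. Means were 393 ± 98.4 in VSG, 404 ± 31.7 in Sham-WM and 543 ± 91.1 in Sham-Ad lib (SD, n = 4 each).

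Neither difference of Slc2a2 from Sham-Ad lib passed the test. The log2 fold change was -0.46 for VSG (standard error 0.18, 95% interval -0.85 to -0.08, adjusted p = 0.144) and -0.43 for Sham-WM (standard error 0.18, 95% interval -0.81 to -0.04, adjusted p = 0.186). These comparisons share the Sham-Ad lib libraries. The Sham-WM value passed with 2 RUVs factors (adjusted p = 0.0118) and without libraries 1F and 4F (adjusted p = 0.043), within a range of 0.0118 to 0.997 over the alternatives. Between VSG and Sham-WM the log2 fold change was -0.04, with a 95% interval of -0.43 to 0.35.

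Khk (ENSMUSG00000029162, chromosome 5 from 30921431 to 30931248) encodes ketohexokinase, which phosphorylates fructose. Sham-WM libraries had 527 (2F), 505 (9F), 553 (15F) and 466 CPM (16F), against 326 (3F), 280.3 (4F), 425 (6F) and 331 CPM (10F) in Sham-Ad lib. The ranges did not overlap. VSG libraries were spread over both groups, with 307 (1F), 258 (8F), 602 (11F) and 371 CPM (18F). The coefficient of variation was accordingly 39.5% in VSG against 7.21% in Sham-WM.

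The log2 fold change of Khk between Sham-WM and Sham-Ad lib was 0.59 (standard error 0.22, 95% interval 0.11 to 1.07, adjusted p = 0.132) and did not pass. In this comparison 6.99% of all genes tested passed and 17.6% had ranges that did not overlap, and Khk was the only one of the 7 (14.3%) with separate ranges. Khk passed when only Sham-WM and Sham-Ad lib were in the fit (adjusted p = 0.0201), with 2 RUVs factors (0.0146) and without VSG library 11F (0.0266), within a range of 0.0146 to 0.895 over the alternatives. Library 11F had the highest Khk of the 12. Without it, Khk was also lower in VSG than in Sham-WM (log2 fold change -0.71, adjusted p = 0.00853), while with it the value was -0.41 (adjusted p = 0.177, range over the alternatives 0.00853 to 1.00).

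Gckr (ENSMUSG00000059434, chromosome 5 from 31297443 to 31327314) encodes a regulatory protein of glucose phosphorylation. Its level was nearly the same in the 3 groups, with 162 ± 27.2 CPM in VSG (141 to 199), 165 ± 23.2 in Sham-WM (143 to 186) and 151 ± 12.4 in Sham-Ad lib (135 to 164). No difference passed, and the 95% intervals of the 3 log2 fold changes lay within -0.32 and 0.42.

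Pfkl (ENSMUSG00000020277, chromosome 10 from 77986947 to 78010083, minus strand) encodes the liver subunit of phosphofructokinase, the committed step of glycolysis. It had 42.8 ± 9.80 CPM in VSG (34.6 to 55.1), 44.0 ± 7.30 in Sham-WM (36.3 to 53.8) and 42.4 ± 2.59 in Sham-Ad lib (40.0 to 45.3). The 95% intervals of its 3 log2 fold changes lay within -0.38 and 0.39.

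Pfkfb1 (ENSMUSG00000025271, chromosome X from 150588229 to 150643878) encodes the liver form of the enzyme that makes and removes fructose 2,6-bisphosphate. VSG libraries had 27.7 (1F), 34.3 (8F), 47.1 (11F) and 31.7 CPM (18F). Sham-Ad lib libraries had 40.8 (3F), 43.8 (4F), 49.4 (6F) and 62.2 CPM (10F). Sham-WM libraries fell into a high pair, 67.7 (2F) and 80.9 CPM (9F), and a low pair, 31.2 (15F) and 38.9 CPM (16F). The log2 fold change between VSG and Sham-WM was -0.64 (standard error 0.27, 95% interval -1.22 to -0.06, adjusted p = 0.0952). It passed without library 15F (-0.83, adjusted p = 0.0358), within a range of 0.0358 to 1.00 over the alternatives. Pfkfb1 shares 123 exon bases with Apex2 on the opposite strand, for which the adjusted p was 0.591 in this comparison.

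Pfkfb3 (ENSMUSG00000026773, chromosome 2 from 11471433 to 11554077, minus strand) encodes the inducible form, whose kinase activity outweighs its phosphatase activity. It varied more among mice of 1 group than between groups. VSG libraries had 27.0 (1F), 10.5 (8F), 6.85 (11F) and 38.9 CPM (18F), Sham-WM libraries had 25.1 (2F), 3.07 (9F), 11.0 (15F) and 20.2 CPM (16F), and Sham-Ad lib libraries had 19.4 (3F), 14.0 (4F), 9.95 (6F) and 5.96 CPM (10F). The coefficient of variation was between 46.5% and 71.6% in the 3 groups. The log2 fold change of Pfkfb3 was 0.76 for VSG against Sham-Ad lib with a 95% interval of -0.53 to 2.04, which leaves room for a change in either direction.

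In VSG against Sham-Ad lib, 0 of the 7 genes passed with edgeR, 2 had an unadjusted p under 0.05 and DESeq2 called 1, Pklr. Of all genes tested, 0.751% passed in this comparison and 9.18% had ranges that did not overlap, which held for 0 of the 7. In Sham-WM against Sham-Ad lib, 0 of the 7 passed with edgeR, 3 had an unadjusted p under 0.05 and DESeq2 called 0. In VSG against Sham-WM, 2 had an unadjusted p under 0.05 and both tools called 1. The share of all genes that DESeq2 called is not given here, so its counts cannot be set against the 0.751% of edgeR. Of all genes tested, 24.1%, 21.6% and 40.4% had an unadjusted p under 0.05 in the 3 comparisons in this order. The median log2 fold change of the 7 was 0.02, 0.16 and -0.04 in the 3 comparisons in this order, beside medians of 0.03, 0.00 and 0.03 over all genes tested.

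**Figure D2:**
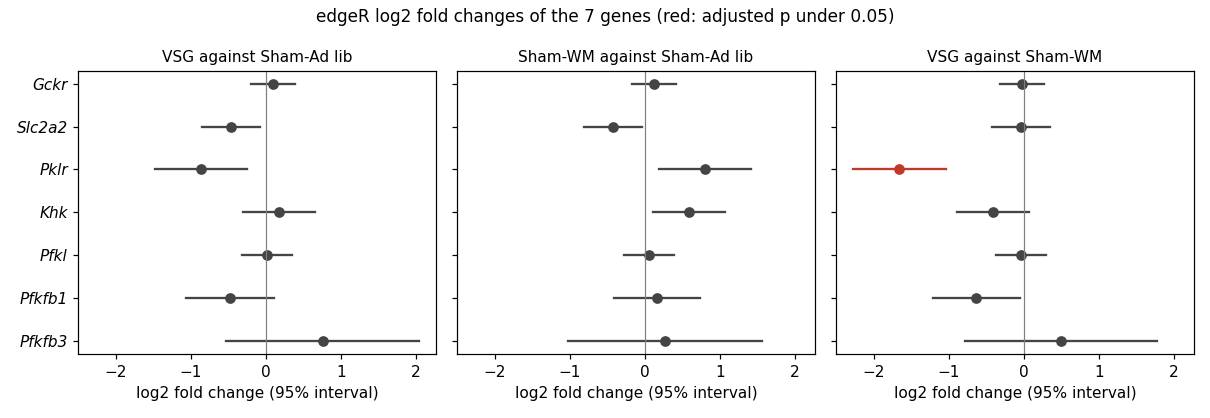
Log2 fold changes (horizontal axis) of the 7 genes from edgeR's fit in the 3 comparisons. Points are estimates, lines are 95% intervals, and red marks an adjusted p under 0.05, which Pklr alone reached, in VSG against Sham-WM (-1.66).

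Levels of different genes were compared as CPM per kilobase of exon. Khk was the highest of the 7 in every group, with means of 214 CPM per kilobase in VSG, 285 in Sham-WM and 189.5 in Sham-Ad lib, and its range overlapped that of no other gene within a group. Pfkfb3 was the lowest, with means of 2.75, 1.96 and 1.63 CPM per kilobase in the same order. The middle of the order moved with Pklr. In Sham-WM, Pklr (134) stood second, above Slc2a2 (70.2) and Gckr (38.1), without overlap of neighbours. In Sham-Ad lib, Slc2a2 (94.4) and Pklr (77.3) overlapped and Gckr (34.9) lay below both. In VSG, Slc2a2 (68.3) overlapped Pklr (42.5), which in turn overlapped Gckr (37.4). Pfkfb1 and Pfkl came next in each group, with means of 8.76 to 13.6 and 6.35 to 6.60 CPM per kilobase, and overlapped in Sham-WM and VSG.

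The balance of the liver pyruvate kinase gene with Pkm, which encodes the M form of most other cells, was described for each library. The ratio of Pkm to Pklr counts per base was 0.566 (1F), 0.155 (8F), 0.0822 (11F) and 0.128 (18F) in VSG. It was 0.0163 to 0.0416 in Sham-WM and 0.0245 to 0.122 in Sham-Ad lib, where 4F gave the highest value. VSG and Sham-WM did not overlap, while VSG and Sham-Ad lib did. Between VSG and Sham-WM, the levels of 26.2% of all genes tested did not overlap. Both parts of the ratio moved, since Pkm had 41.1 ± 25.6 CPM in VSG against 17.5 ± 4.13 in Sham-WM (log2 fold change 1.23, standard error 0.36, adjusted p = 0.026).

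Hk2, a hexokinase of high glucose affinity that adult hepatocytes hold at low level, rose against Sham-WM from 1.04 ± 0.25 to 4.59 ± 2.26 CPM (log2 fold change 2.14, standard error 0.42, adjusted p = 0.00391). The ratios of Pfkfb3 to Pfkfb1 (0.0201 to 0.652 over all libraries) and of Pfkp, the platelet subunit, to Pfkl (0.0194 to 0.0548) overlapped between groups. A ratio within a library does not depend on how libraries were scaled, and the ratios were not tested. Pfkp shares 748 exon bases with Pitrm1 on the opposite strand. Pitrm1 had a mean of 692 counts, while Pfkp had 26 to 89 counts a library. The strand setting of the counting is not stated, so reads of Pitrm1 could be mixed into Pfkp and its ratio.

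**Figure D3:**
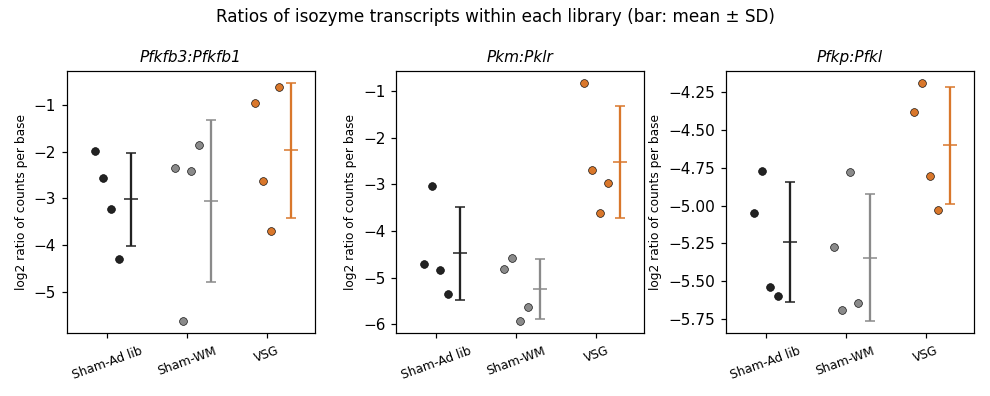
Log2 ratio of counts per base of exon (vertical axes) for 3 pairs of genes within each library, by group, with the mean ± SD of 4. In Pkm:Pklr all VSG points lie above all Sham-WM points, and in the other pairs the groups overlap.

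Within VSG, Hk2 fell in the same order as the neutrophil marker sum, and Pkm did so except in 11F. The neutrophil sums of the VSG libraries were 638 (1F), 258 (8F), 102 (11F) and 22.3 CPM (18F), beside Hk2 levels of 6.92, 5.76, 3.91 and 1.76 CPM and Pkm levels of 77.5, 40.0, 20.1 and 26.9 CPM in that order. Over the same libraries, macrophage marker sums (1297, 693, 615 and 459 CPM) fell in this order too. So did B and plasma cell sums (22.6, 19.1, 16.9 and 10.2 CPM), while the sums of no other list did. Sham-Ad lib library 4F, with a neutrophil sum of 16.2 CPM, had the highest Hk2 (3.00 CPM) and Pkm (26.4 CPM) of its group. In VSG against Sham-WM, 7 of 7 macrophage markers and 5 of the 5 neutrophil markers tested were higher. So were 3 of 5 B and plasma cell markers and 2 of 3 T and NK cell markers tested, where 26.9% of all genes tested passed. The part of these cells in the levels of Pkm and Hk2 was not tested.

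**Figure D4:**
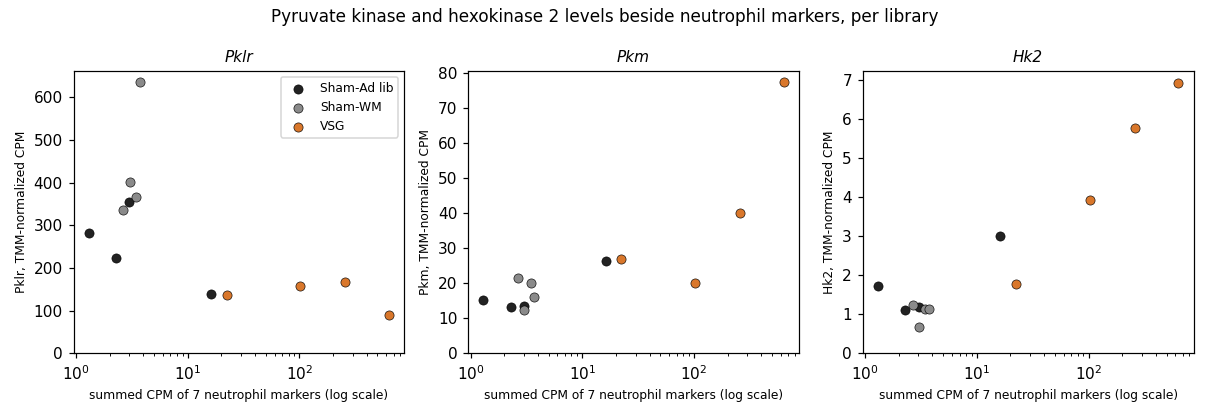
TMM-normalized CPM of Pklr, Pkm and Hk2 (vertical axes, from 0) against the summed CPM of 7 neutrophil markers (horizontal axis, log scale) in the 12 libraries, coloured by group. VSG libraries have neutrophil sums of 22.3 CPM or more, and 4F is the Sham-Ad lib library at 16.2.

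Around the 7 genes, 59 further genes of hexose uptake, fructose use, glycolysis, fructose 2,6-bisphosphate control, pyruvate use and the ChREBP response were listed, and 54 could be tested. In VSG against Sham-Ad lib 0 of the 54 passed with edgeR, 18 had an unadjusted p under 0.05 beside 24.1% of all genes tested, and DESeq2 called 10. The count with edgeR was 10 without library 18F, 9 without 4F and 8 with no filter on low counts. For DESeq2 and these fits the share of all genes passing is not given here. Their counts cannot be set against the 0.751% of edgeR's main fit. In Sham-WM against Sham-Ad lib 11 passed (20.4%), 7 higher and 4 lower, where 6.99% of all genes passed, and 0 passed under the other field of the labels. In VSG against Sham-WM 24 passed (44.4%), 10 higher and 14 lower in VSG, where 26.9% of all genes passed. The count of 24 fell to 17 without library 1F, to 16 without 15F or 16F, to 5 with 2 RUVs factors and to 0 under the other field of the labels. For the fits without a library and with RUVs factors, the share of all genes passing is not given here. Those counts cannot be set against the 26.9% of the main fit, and a fall particular to the listed genes was not tested. The median log2 fold changes of the 54 were -0.03, 0.07 and -0.11 in the 3 comparisons in this order. The lists were chosen with earlier results of these data known. The shares of listed genes that passed, here and below, are therefore no test of an excess.

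Of 10 tested genes of hexose uptake and phosphorylation, 5 (50%) were higher in VSG than in Sham-WM and 0 lower, where 26.9% of all genes tested passed. Slc2a5, the fructose transporter GLUT5, had 5.24 ± 0.60 CPM in Sham-WM against 17.3 ± 4.20 in Sham-Ad lib and 15.2 ± 3.05 in VSG. It fell in Sham-WM against Sham-Ad lib (log2 fold change -1.72, adjusted p = 0.000336) and was higher in VSG than in Sham-WM (1.54, adjusted p = 0.00042). Slc2a9, which carries urate, took the same course over a smaller range, with 46.2 ± 1.06 CPM in Sham-WM, 64.7 ± 6.81 in Sham-Ad lib and 59.9 ± 6.78 in VSG (-0.49, adjusted p = 0.0159, and 0.38, adjusted p = 0.0212).

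The other 3 were Hk2, Hk3 and Slc2a3. Hk3, a hexokinase of blood cells, and Slc2a3, a high-affinity glucose transporter, were higher in VSG than in Sham-WM with log2 fold changes of 1.70 (adjusted p = 0.0288) and 2.95 (adjusted p = 0.00398). Slc2a3 rested on few reads, from 6 to 7 counts a library in Sham-WM and from 12 to 78 in VSG. Both genes were highest in 1F within VSG, the library with the highest neutrophil and macrophage sums, and the part of those cells was not tested.

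In the fructose steps beside Khk, 3 of 5 tested genes (60%) passed between VSG and Sham-WM, 2 higher and 1 lower in VSG. Of all genes tested, 26.9% passed in this comparison. Tkfc, which phosphorylates the glyceraldehyde made from fructose, had 809 ± 264 CPM in Sham-WM against 329.9 ± 87.4 in Sham-Ad lib and 327 ± 50.7 in VSG. It rose in Sham-WM against Sham-Ad lib (log2 fold change 1.29, adjusted p = 0.00572) and was lower in VSG than in Sham-WM (-1.31, adjusted p = 0.00233). Tkfc shares 596 exon bases with Cyb561a3 (mean 144 counts) and 328 with Ddb1 (mean 4130 counts), both on the opposite strand. Reads of these genes could be mixed into Tkfc, since the strand setting of the counting is not stated. Akr1b3, aldose reductase, was higher in VSG than in Sham-WM (0.71, adjusted p = 0.0462), as was Slc2a5, named above.

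Of 15 tested glycolytic enzymes, 2 (13.3%) were higher in Sham-WM than in Sham-Ad lib and 0 lower, where 6.99% of all genes tested passed. These were Gpi1, glucose 6-phosphate isomerase (214 ± 48.8 against 129 ± 6.80 CPM, log2 fold change 0.73, adjusted p = 0.00967), and Eno1, enolase (635 ± 38.0 against 402 ± 66.0 CPM, 0.66, adjusted p = 0.00922). In VSG against Sham-WM, 5 passed (33.3%), where 26.9% of all genes tested passed. Eno1 (-0.86, adjusted p = 0.00112), Pgk1 (-0.50, adjusted p = 0.011) and Gpi1 (-0.45, adjusted p = 0.0339) were lower, while Pkm and Aldoa (0.51, adjusted p = 0.00971), the aldolase of muscle and blood cells, were higher. Of the 3 other tested genes of fructose 2,6-bisphosphate control, Pfkfb4 alone passed, higher in VSG than in Sham-WM (2.06, adjusted p = 0.033), from 6 to 19 counts a library in Sham-WM and from 12 to 88 in VSG. Its VSG levels were 5.25 (1F), 2.35 (8F), 2.26 (11F) and 0.682 CPM (18F). That is the same order as the neutrophil, macrophage and B and plasma cell marker sums. Within Sham-Ad lib, Pfkfb4 was highest in 4F (1.39 CPM). The part of those cells in Pfkfb4 was not tested.

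Of 16 tested genes of pyruvate use, 9 passed in VSG against Sham-WM (56.2%), 1 higher and 8 lower, where 26.9% of all genes passed. Of the pyruvate dehydrogenase complex, which turns pyruvate into acetyl-CoA, Pdhb (-0.60, adjusted p = 0.00492), Pdha1 (-0.56, adjusted p = 0.0241), Dlat (-0.74, adjusted p = 0.0127), Pdhx (-0.41, adjusted p = 0.0316) and Dld (-0.36, adjusted p = 0.0254) were lower in VSG. The kinases that switch this complex off did not move together. Pdk4 (-2.30, adjusted p = 0.000148) and Pdk1 (-1.13, adjusted p = 0.00295) were lower in VSG than in Sham-WM, and Pdk2 (0.61, adjusted p = 0.0174) was higher.

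Against Sham-Ad lib, Pdk4 rose in Sham-WM from 3.59 ± 0.78 to 11.3 ± 3.03 CPM (log2 fold change 1.65, adjusted p = 0.00181), Pdhb rose (0.51, adjusted p = 0.0247) and Pdk2 fell (-0.82, adjusted p = 0.0112). Slc16a1, the lactate and pyruvate carrier MCT1, rose from 29.8 ± 2.20 to 60.5 ± 11.8 CPM in Sham-WM (1.02, adjusted p = 0.0025) and was lower in VSG, at 30.0 ± 5.63 CPM, than in Sham-WM (-1.01, adjusted p = 0.00126).

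The ChREBP list gave a mixed picture around Pklr. Mlxipl, which encodes ChREBP, did not pass in any comparison and had 174 ± 44.6 CPM in VSG, 216 ± 33.5 in Sham-WM and 164 ± 20.8 in Sham-Ad lib. Mlx, its partner, rose in Sham-WM against Sham-Ad lib (log2 fold change 0.51, adjusted p = 0.043) and was lower in VSG than in Sham-WM (-0.43, adjusted p = 0.0365). Thrsp, a lipogenic target, had 925 ± 342 CPM in Sham-WM and 242 ± 177 in VSG (-1.93, adjusted p = 0.00544), the same direction as Pklr. Txnip, an inhibitor of glucose uptake and also a ChREBP target, went the other way in Sham-WM, where it fell to 38.7 ± 15.2 CPM from 95.5 to 125 in Sham-Ad lib libraries (-1.52, adjusted p = 0.00347). Txnip levels of VSG libraries, at 41.7 to 61.6 CPM, also lay below those of Sham-Ad lib, with an adjusted p of 0.0513 in edgeR and 0.000977 in DESeq2.

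**Figure D5:**
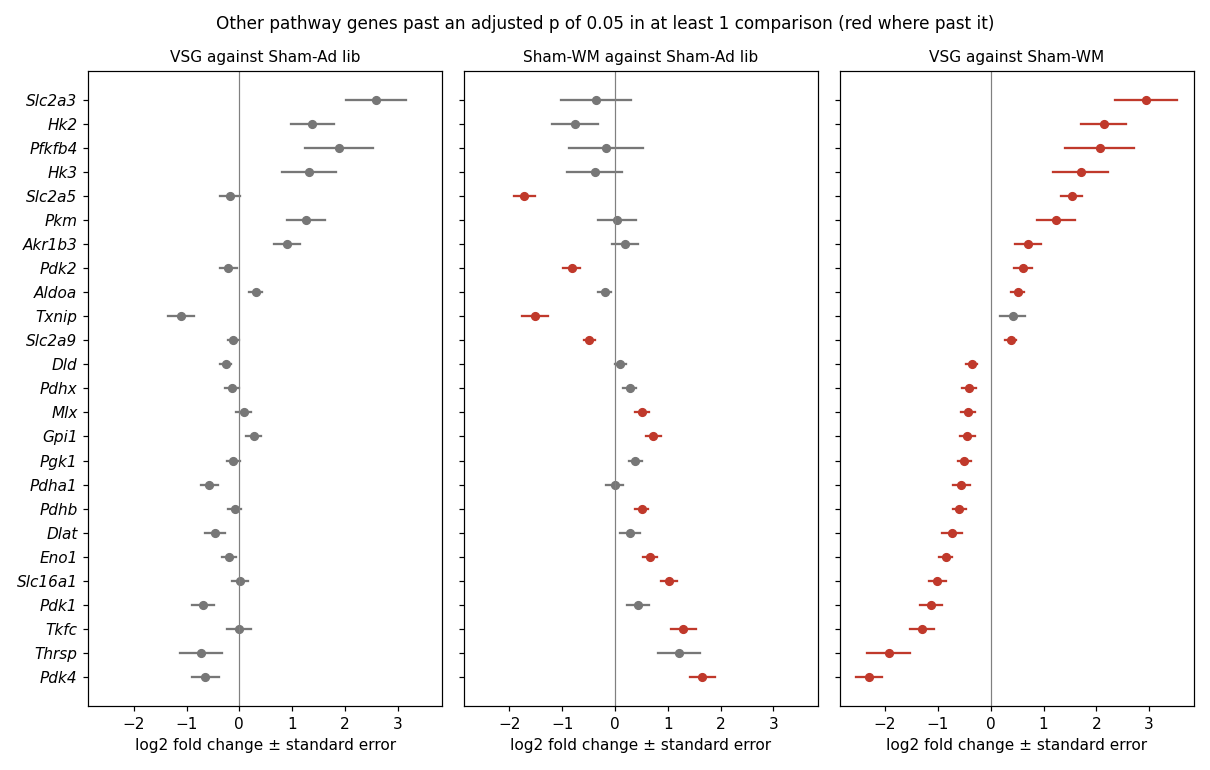
Log2 fold changes ± standard error (horizontal axis) from edgeR's fit for the 25 listed pathway genes past an adjusted p of 0.05 in at least 1 comparison, with red where they passed. In VSG against Sham-WM 10 red points are higher and 14 lower, and in VSG against Sham-Ad lib none is red.

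Across the 12 libraries, the 7 genes did not follow a common course. The highest Pearson r of log2 CPM among their pairs was 0.62, for Gckr and Khk, followed by 0.57 for Pklr and Khk, and the lowest was -0.61, for Pfkfb1 and Pfkfb3. All libraries of a group share its treatment, so these values describe the 12 libraries and were not tested. By the same measure, the genes most like Pklr among all genes tested were Polr2b (0.96), Nfic (0.95) and Golim4 (0.95). Those most like Khk were Nudt19 (0.96), Slc26a10 (0.94) and Akirin2 (0.94), and those most like Slc2a2 were Cdk18 (0.94), Chn2 (0.94) and Lmbrd1 (0.92). Pfkfb1 was most like Tspan31, Nme2 and Slc22a28 (all 0.92). For Pfkfb3 they were Cln8 (0.87), Pck1 (0.86), the gluconeogenic enzyme, and Klf15 (0.84). Gckr was most like 5033403H07Rik (0.92), Hectd2 (0.89) and Ptdss1 (0.88), and Pfkl like Nipal1 (0.86), Capn10 (0.84) and Sae1 (0.80).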

How the data were processed

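The authors made directional poly(A) libraries from liver RNA, aligned the paired reads to mm10 with TopHat2 2.1.1 and counted them on genes with featureCounts. The deposited values are raw counts per Ensembl gene, with no normalization. The annotation release and the strand setting of the counting are not given in the sources used here. Of 46078 genes, 849 had no match in GENCODE M21, which gave symbols, positions and exon lengths.

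Library totals ranged from 15122520 to 19384076. No pair of replicates was a copy (lowest chi-square per gene 16.8). Genes were kept by filterByExpr (minimum count 10, minimum total 15). In edgeR 4.0.16 (R 4.3.3), 1 model of 3 group means used all 12 libraries and TMM factors, and quasi-likelihood tests gave 3 contrasts. Benjamini-Hochberg adjustment ran over 13054 genes, with calls at 0.05. Correlations used log2 CPM with a prior count of 2. The method was run on data simulated with the fitted spread of these libraries and with changes placed in VSG alone. That simulation held no shift of cell composition and no batch, and its outcome is not given here. Replicates are separate mice by the labels. Reads carried no molecular identifiers.

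The genes named are the 7 members, pathway genes past the threshold in at least 1 contrast, genes of the ratios, and the 3 genes most correlated with each member. Mlxipl and overlapping genes are given beside them. Some listed genes are not reported here and were left out of the list counts. The members and lists were chosen with earlier results of these data known.

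Alternatives were DESeq2 1.42.0, its size factors, upper quartile factors, no filter, at least 10 counts in every library, only the 2 groups compared, 2 RUVs factors, grouping by the other label field, and leaving out each library. Leaving out both 1F and 4F was chosen after seeing the data. Marker sums were examined in 10 cell lists. A protein table was not used here.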

Additional observations from a re-analysis of the deposited data

Results flagged for a closer look

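Over the 3 groups of 4 libraries, the 7 genes, the other named pathway genes and the ratios were examined, and in 6 cases a group held a library whose gap to its nearest neighbour, as a share of the group's range, was above Dixon's critical value at 95%. Chance gives about 1 in 20 such groups, and these 6 cases are close to that share. The ratio of Pfkfb3 to Pfkfb1 was low in Sham-WM library 9F (gap share 0.851), which had the lowest Pfkfb3 and the highest Pfkfb1 of the 12 libraries. Pdk1 (0.925) and Slc16a1 (0.900) were low in Sham-Ad lib library 4F, and Slc16a1 was high in VSG library 1F (0.847). In Sham-WM library 16F, Hk2 was low (0.847, from 12 counts) and Slc2a3 was high (0.981), the latter from 7 counts against 6 in each of the other libraries. None of the 7 genes was set apart by this measure in its own level.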

How the results depend on the processing

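Of 441 log2 fold changes of the 7 genes over 21 alternatives and 3 comparisons, 430 kept their side of the threshold, 9 passed that had not before, and 2 were lost. Only Pklr in VSG against Sham-WM was called in the main fit, so most of the 430 are values that did not pass in either fit. That 1 call was kept in 19 of the 21 alternatives. Between VSG and Sham-WM the count of the 7 genes called went from 1 to 0 with 2 RUVs factors and under the other label field, and ranged from 1 to 2 when each library was left out (2 without 15F, with Pfkfb1, or 11F, with Khk). Against Sham-Ad lib, VSG gave 1 with DESeq2 and 0 to 1 when each library was left out (1 without 4F). Sham-WM against Sham-Ad lib gave 1 with only the 2 groups in the fit, 2 with 2 RUVs factors, 1 without libraries 1F and 4F, and 0 to 1 when each library was left out (1 without 11F). The pathway count in VSG against Sham-Ad lib was 10 with DESeq2, 1 with its size factors in edgeR, 8 with no filter, 4 without 1F and 4F, and 0 to 10 when each library was left out (9 without 4F, 1 without 8F or 11F, 10 without 18F). The pathway count in VSG against Sham-WM was 5 with 2 RUVs factors and 0 under the other label field, which also gave 0 in Sham-WM against Sham-Ad lib. The cause of these moves was not tested. Except for the other label field, the share of all genes passing under each alternative is not given here. No mean level moved beyond its SD with DESeq2's size factors. No paired analysis was possible because the groups share no replicate number. With 4 mice a group, the 95% interval of Pfkfb3 spans more than 2 on the log2 scale, so moderate changes of this gene were not detectable, although its counts of 60 or more were not low.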
